A study of Homo sapiens with 12 samples.

Results

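The proteasome activators PSME1, PSME2, PSME3 and PSME4 and the proteasome inhibitor gene PSMF1 were followed through 12 RNA-seq libraries of the human lung carcinoma cell line A549. The 5 genes were chosen by name from the 58676 genes of the deposited table, and all 5 were expressed well enough to be tested. There were 6 groups of 2 libraries: a control line (Control1 in the labels) and 2 NFE2L1 knockout lines (KO1 and KO2), each given DMSO vehicle or bortezomib, a boronate drug that blocks the catalytic sites of the proteasome, at 200 nM for 4 h. NFE2L1 (also called NRF1 or TCF11) encodes the transcription factor that is known to raise proteasome subunit genes when proteasome activity falls. The labels do not say how the knockouts were made, whether each line is 1 clone, or whether the libraries of a group came from separate cultures, so the tests measure only the spread between these libraries.

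The 20S core particle is a barrel of alpha and beta subunits whose gate is opened by regulators docked on its ends. The 19S particle is the regulator that takes in ubiquitinated proteins with ATP. PSME1 and PSME2 encode PA28 alpha and PA28 beta, interferon-inducible subunits of a mixed ring that is linked to production of peptides for MHC class I. PSME3 encodes PA28 gamma, which forms a ring of its own kind in the nucleus, and PSME4 encodes PA200, a large single-chain activator that is also mostly nuclear. PSMF1 encodes PI31, first described as an inhibitor of the 20S core in vitro and later tied to proteasome transport and assembly.

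The promoters of PSME4, PSME1 and PSME2 are shown because PSME4 was the member with the clearest response to bortezomib and because PSME1 and PSME2 are the paired subunits of 1 ring. The stretches run from 110 bases before to 30 bases from the RefSeq start, 5′ to 3′ on the gene's own strand, from RefSeq sequence of build GRCh38.p14. Capitals mark matches to the core of the antioxidant response element, which is read by NFE2L1 and its relatives (TGACNNNGC or TGAGNNNGC), or to the interferon-stimulated response element (GAAA, any 2 bases, GAAA), searched on both strands.

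PSME4 (chr2:53970964-53971103, minus strand): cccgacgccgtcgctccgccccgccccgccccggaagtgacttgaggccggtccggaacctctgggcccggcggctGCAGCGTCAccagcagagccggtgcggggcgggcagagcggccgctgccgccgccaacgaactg

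PSME1 (chr14:24136084-24136223, plus strand): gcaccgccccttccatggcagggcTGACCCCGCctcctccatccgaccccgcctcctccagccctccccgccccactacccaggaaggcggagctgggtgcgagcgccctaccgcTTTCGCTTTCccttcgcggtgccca

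PSME2 (chr14:24146581-24146720, minus strand): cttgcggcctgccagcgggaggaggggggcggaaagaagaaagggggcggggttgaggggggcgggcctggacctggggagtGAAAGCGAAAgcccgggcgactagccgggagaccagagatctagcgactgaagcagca

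The PSME4 stretch holds an antioxidant response core on its minus strand (TGACGCTGC, at −34), and a second match (TGAGGCAGC) lies at −220, outside the stretch shown, with positions counted from the start. PSME1 has 1 such core at −86, and PSME2 has 1 at −175, also outside the stretch shown. No match was found in the RefSeq windows of PSME3 and PSMF1, which run from 250 bases before to 50 after the start. These letters are common: 29.1% of all 35116 RefSeq windows of that size hold a match. Counted by gene, a match in any window of the gene was found for 6 of the 10 20S core genes that have a window. The same was so for 10 of the 18 such 19S genes. A count by gene is a different measure from a share of windows. The interferon element is rarer, at 3.57% of all windows, and of the 5 genes only PSME1 and PSME2 have it, at 5 and −28 from the start. The longest run of letters that the PSME1 and PSME2 windows share, GAAAGCGAAAGC, 12 bases read on opposite strands, covers that element. Of the other motifs searched on both strands, the CCAAT box (CCAAT, 34.6% of all windows) and the gamma-activated sequence (TTCNNNGAA, 7.66%) each matched in PSME3 and in no other member. The heat shock element pair (GAANNTTC or TTCNNGAA, 13.5%) matched in none of the 5. A match describes the letters in a window and does not show binding.

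PSME1 (ENSG00000092010) lies on chromosome 14 from 24136158 to 24138967 on the plus strand, and PSME2 (ENSG00000100911) on chromosome 14 from 24143362 to 24147570 on the minus strand, so that their facing ends are 4394 bases apart. PSME3 (ENSG00000131467) is on chromosome 17 (42824385 to 42843758, plus), PSME4 (ENSG00000068878) on chromosome 2 (53864067 to 53970840, minus) and PSMF1 (ENSG00000125818) on chromosome 20 (1113263 to 1189415, plus), in the deposited table's coordinates, which match GRCh38. Counting by strand is not stated, so reads in overlaps with an opposite gene cannot be told apart. PSME3 overlaps BECN1 over 8966 bases, PSMF1 overlaps TMEM74B over 4855 bases and PSME2 overlaps RNF31 over 888 bases. BECN1 reached at most 11.3 FPKM, TMEM74B 8.82 FPKM and RNF31 5.72 FPKM.

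Levels are in FPKM, that is fragments per kilobase of gene, scaled to the reads assigned in a library, so that those of different genes can be set side by side. Each library had between 13211608 and 23819258 assigned reads, of which 560 to 7659 fell on any 1 member. Each KO group has a library titled R1 and a library titled R2, and each control group has R2 and a library with no number. The 6 R2 libraries stood apart, with 12.3% to 19.3% of reads on mitochondrial genes against 5.44% to 6.8% in the other 6. NFE2L1, the targeted gene, had 9.82% to 11.6% of the control FPKM in KO1 and 22.3% to 25.6% in KO2 in vehicle, so the knockout lines kept part of its RNA. In bortezomib these shares were 18.9% to 24.8% in KO1 and 26.8% to 33.7% in KO2. Of 6 epithelial markers all were detected in every library, with KRT7 at 222 to 755 FPKM, while the leukocyte markers PTPRC and CD3E were listed at 0 in 10 and 9 of 12 libraries. The summed epithelial level was 521 to 1090 FPKM over the control libraries, 781 to 1510 over KO1 and 1210 to 1930 over KO2, and its part in the line differences below was not tested. Over all 9 markers of other cell types the summed level was 4.5 to 7.63 FPKM in vehicle and 6.44 to 24.3 FPKM in bortezomib, most of it from COL1A1 (1.42 to 23.3 FPKM) and CD14 (up to 3.63 FPKM), and its part in the results was not tested either.

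All 5 members were well expressed, with PSME3 highest and PSME4 lowest by mean. PSME3 averaged 47.1 FPKM over the 12 libraries, above 94.2% of the 12194 genes tested. PSME1 averaged 34.0, PSMF1 23.3, PSME2 14.9 and PSME4 11.9 FPKM, the last above 70.6% of tested genes. PSME3 was first and PSME1 the next in all 12 libraries, and the full order PSME3, PSME1, PSMF1, PSME2, PSME4 held in 9 of them. PSME4 stood above PSME2 only in the 2 control libraries with bortezomib. In a mixed PA28 ring the alpha and beta subunits sit together, and PSME1 mRNA was above PSME2 mRNA in every library, by 1.45 to 3.05 times in FPKM.

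**Figure D1:**
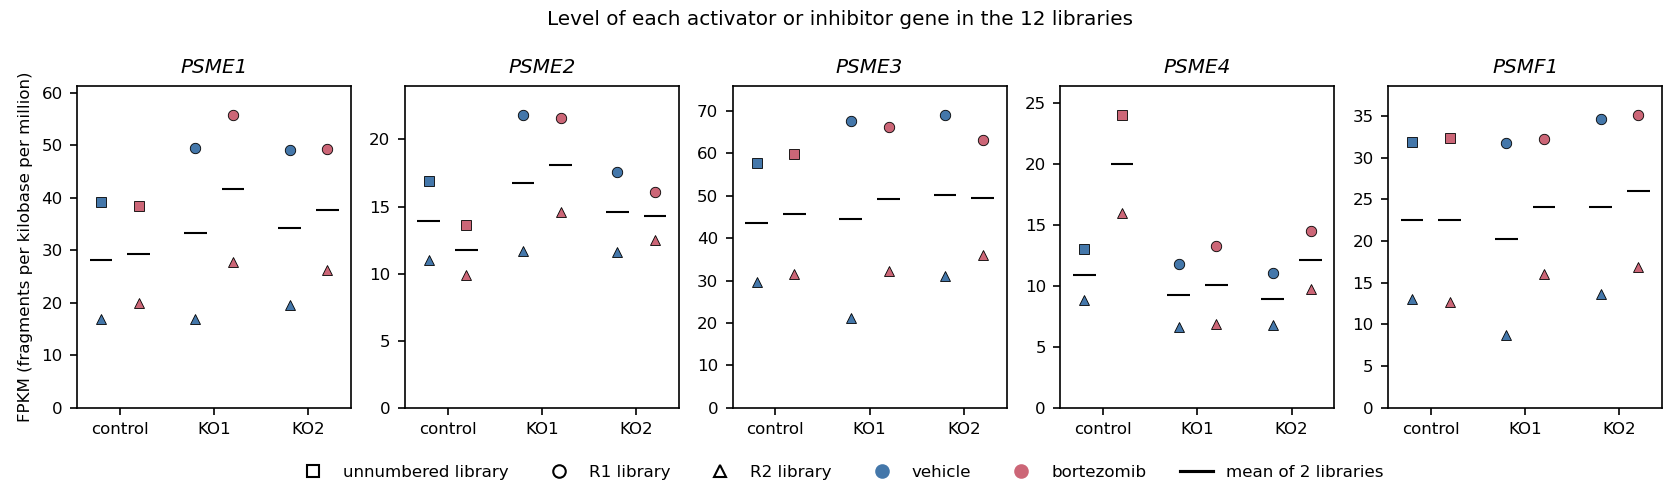
FPKM of PSME1, PSME2, PSME3, PSME4 and PSMF1 in each library, by line (x axis) and treatment (colour), with the mean of the 2 libraries as a bar and the title suffix as the marker shape. The R2 triangle is the lower point in all 6 groups of every gene, and PSME4 in the bortezomib-treated control line (16.0 and 24.0 FPKM) is above its other 10 values.

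The R2 library was the lower of the 2 in 6 of 6 groups for all 5 members, a pattern that 44.2% of tested genes share. R2 held 27.4% to 49.6% of its partner's FPKM for PSMF1, 31.4% to 57.1% for PSME3, 34.2% to 53.3% for PSME1, 51.9% to 68.1% for PSME4 and 53.7% to 77.8% for PSME2. On the log2(FPKM + 1) scale, R2 minus its partner ran from −1.75 to −0.34 over the 5 genes and 6 groups. Each comparison is therefore given without a term for the suffix, which was the main model, and with the suffix as a replicate block where that changed the call. Fewer cells of a type and less RNA per cell cannot be told apart in such bulk libraries.

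With bortezomib PSME4 was above its vehicle level in all 6 pairs of libraries, by the widest margin in the control line, and no other member was higher or lower in all 6. PSME4, the PA200 gene, was at 13.0 FPKM (unnumbered) and 8.83 (R2) in vehicle-treated control cells and at 24.0 and 16.0 with bortezomib. Both treated control libraries were above both vehicle libraries, which 16.9% of tested genes also showed. In the KO1 line PSME4 was at 11.8 (R1) and 6.63 (R2) in vehicle and at 13.3 and 6.89 with bortezomib. In KO2 it was at 11.1 and 6.80 in vehicle and at 14.5 and 9.75 with bortezomib. In both knockout lines the treated and vehicle libraries overlapped. In pairs of libraries (unnumbered or R1 with its like, and R2 with R2) PSME4 was 1.85 and 1.81 times its vehicle level in control cells, 1.12 and 1.04 times in KO1 and 1.31 and 1.43 times in KO2. It was the only member to be higher with bortezomib in all 6 pairs, as were 24.8% of tested genes.

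The log2 fold change of PSME4, on the log2(FPKM + 1) scale used throughout, was 0.81 in control cells (SE 0.44, limma adjusted p = 0.525). It was 0.10 for KO1 (limma adjusted p = 0.986) and 0.41 for KO2 (limma adjusted p = 0.92). Without the block limma called 0 of the 5 members in each of the 3 lines, where it called 0.467%, 0.238% and 0.32% of all genes tested. None had an unadjusted p under 0.05, beside 1498, 1153 and 1169 of the 12194 genes tested. Voom, limma's method for read counts, was run without a block on reads recovered from the FPKM. It called none of the 5 either, beside 1.46%, 0.664% and 1.04% of genes. With the replicate block PSME4 rose in the control line (0.81, SE 0.13, limma adjusted p = 0.00244), and it was the 1 of 5 members called there beside 32.4% of all genes. In KO2 the block gave 0.41 (SE 0.13, limma adjusted p = 0.0506). The block that pools the unnumbered libraries with R1 put PSME4 past the threshold there (limma adjusted p = 0.0464), beside 27.0% of genes. In KO1 the block gave 0.10 with a 95% interval of −0.20 to 0.40 (limma adjusted p = 0.612), and 0 of 5 members were called there and in KO2, beside 27.7% and 27.0% of all genes. Averaged over the 3 lines, PSME4 was higher by 0.44 (SE 0.26, limma adjusted p = 0.313), with 0 of 5 members and 11.6% of genes called. With the block it rose (SE 0.08, limma adjusted p = 0.00123), 1 of 5 members beside 54.9% of genes. With 32.4% and 54.9% of all genes called by the same model, 1 of 5 members is no more than the background, and the values of PSME4 are what these comparisons show. Left without KO1 vehicle R1, the block that pools the unnumbered libraries with R1 gave 0.65, 0.61 and 0.71 for PSME1, PSME3 and PSMF1 in KO1. That fit leaves 1 vehicle library in KO1.

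Neither subunit of the mixed PA28 ring passed the test in any line. PSME1, the alpha subunit, was at 39.2 and 16.9 FPKM in vehicle-treated and 38.4 and 20.01 in bortezomib-treated control cells, at 49.5 and 16.9 against 55.7 and 27.7 in KO1, and at 49.0 and 19.6 against 49.2 and 26.2 for KO2. The vehicle and bortezomib ranges overlapped in all 3 lines, and the widest gap was between the R2 libraries of KO1. The difference for PSME1 was 0.10 in control cells, against 0.42 in KO1 and 0.20 in KO2 (limma adjusted p = 0.988, 0.954 and 0.99). Its mean over the lines was 0.24 (limma adjusted p = 0.765, and 0.0688 with the block). Voom on the recovered reads with the block called it (0.23, limma adjusted p = 0.0383), beside 60.3% of genes.

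PSME2, the beta subunit, was at 16.9 and 11.0 FPKM in vehicle-treated and 13.6 and 9.93 in bortezomib-treated control cells, the only line in which both pairs were lower with the drug. In KO1 it was at 21.8 and 11.7 against 21.6 and 14.6, and in KO2 at 17.6 and 11.6 against 16.1 and 12.5. The control line differed by −0.22 (95% interval −1.15 to 0.71, limma adjusted p = 0.926), and the block put its interval at −0.56 to 0.13 (limma adjusted p = 0.301). KO1 differed by 0.14 and KO2 by −0.01 (limma adjusted p = 0.98 and 0.998).

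PSME3, the nuclear PA28 gamma, was at 57.8 and 29.6 FPKM in vehicle-treated and 59.8 and 31.6 in bortezomib-treated control cells. In KO1 it was at 67.7 and 21.3 against 66.2 and 32.3, and in KO2 at 69.0 and 31.2 against 63.1 and 36.0. The 2 treatments overlapped in every line, and the differences of 0.07, 0.27 and 0.04 did not pass (limma adjusted p = 0.993, 0.978 and 0.996).

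PSMF1, the PI31 gene, was at 31.9 and 13.1 FPKM in vehicle-treated and 32.4 and 12.7 in bortezomib-treated control cells. In KO1 it was at 31.8 and 8.73 against 32.2 and 16.0, and in KO2 at 34.7 and 13.6 against 35.1 and 16.9. Within the first libraries PSMF1 was 1.01 times its vehicle level in each of the 3 lines, whereas the R2 pairs gave 0.963, 1.83 and 1.24 times. The differences of −0.02, 0.41 and 0.15 did not pass (limma adjusted p = 0.999, 0.965 and 0.994). The block narrowed the control line's interval from −1.73 to 1.70 down to −0.45 to 0.42.

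**Figure D2:**
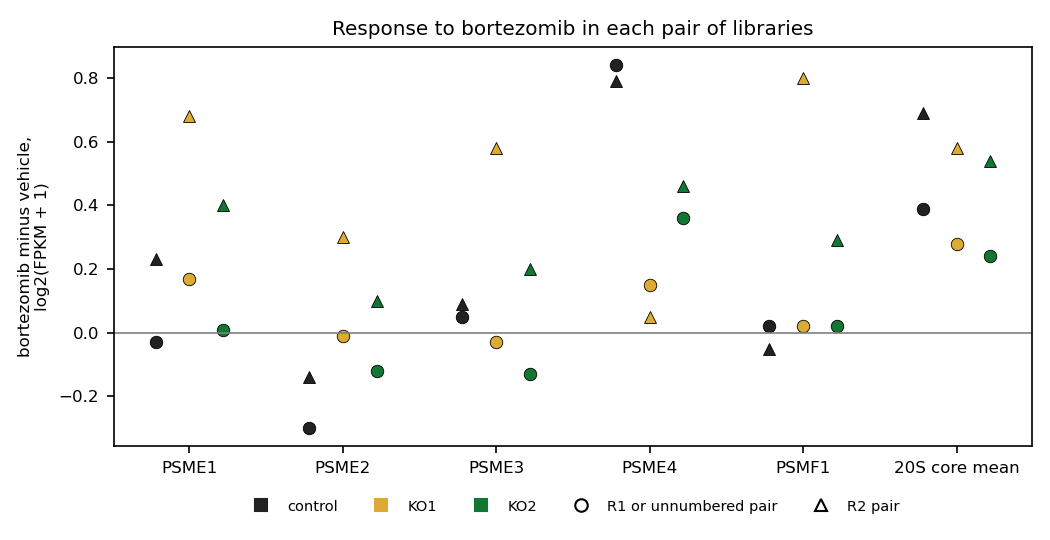
Bortezomib minus vehicle on the log2(FPKM + 1) scale for each member and for the mean of the 14 genes of the 20S core, with lines by colour and the suffix of the pair by marker shape. PSME4 lies above 0 in all 6 pairs and highest in the control line, and the R2 pair of KO1 is the highest point of PSME1, PSME2, PSME3 and PSMF1.

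The 20S core genes provided a scale for these shifts. The mean of the 14 core genes was higher with bortezomib in all 6 pairs, by 0.39 and 0.69 in control cells, 0.28 and 0.58 for KO1 and 0.24 and 0.54 for KO2. The difference between a member's log2 level and this mean was compared with and without the drug over the 6 pairs by an exact two-sided sign-flip permutation test, whose smallest possible p is 0.0312. PSME2 moved down against the core in 6 of 6 pairs, by 0.48 on average (−0.48 ± 0.23, SD, n = 6 pairs, exact p = 0.0312). Since the core mean itself was higher in every pair, 58.6% of tested genes also moved down against it in 6 of 6 pairs, and 71.3% did so in at least 5. PSME3 shifted by −0.33 ± 0.19 (SD, n = 6) and was negative in 5 of 6 pairs (exact p = 0.0625). PSMF1 shifted by −0.27 ± 0.31 (SD, n = 6, exact p = 0.0938) and PSME1 by −0.21 ± 0.21 (SD, n = 6, exact p = 0.0625), each negative in 5 of 6 pairs. PSME4 averaged −0.01 ± 0.32 (SD, n = 6, exact p = 0.938), with 0.45 and 0.10 in control cells, −0.13 and −0.53 in KO1 and 0.12 and −0.08 in KO2. Measured against the mean of the 19S genes instead, it averaged −0.20 (exact p = 0.125). These 5 tests share the same core values, and the p-values are not adjusted.

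Against the control line in vehicle, no member passed the test in the knockout lines. PSME4 was at 91.3% and 75.1% of the control FPKM in KO1 and at 85.9% and 77.0% in KO2, below the paired control library (R1 with unnumbered, R2 with R2) in all 4 pairs, as were 16.3% of tested genes, though the libraries of the lines overlapped. The mean of KO1 and KO2 against control was −0.26 for PSME4, 0.21 for PSME1, 0.14 for PSME2, 0.02 for PSME3 and −0.09 for PSMF1 (limma adjusted p = 1 for each). Limma called 0 of 5 members beside 0.344% of genes, and again 0 of 5 beside 6.18% of genes under the block. None of the 5 had an unadjusted p under 0.05 without the block, beside 561 of the 12194 genes tested. With the block by suffix PSME4 did (−0.34, SE 0.14, limma adjusted p = 0.21), beside 2644 genes. With the block that pools the unnumbered libraries with R1, 0 of 5 members did, beside 2677 genes. Taken singly, KO1 and KO2 also had 0 of 5 members called, beside 0.213% and 0.23% of genes, or 5.95% and 4.91% under the block. Between the 2 knockout lines in vehicle 0 of 5 members were called beside 0.0656% of genes, or 3.0% with the block, and PSMF1 showed the largest difference, −0.36 in KO1 against KO2 (95% interval −2.08 to 1.36, limma adjusted p = 1).

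With bortezomib, PSME4 was lower in both knockout lines than in the control line. KO1 held 55.3% (R1 against unnumbered) and 43.0% (R2) of the control FPKM, and KO2 held 60.6% and 60.9%. All 4 knockout libraries, at 6.89 to 14.5 FPKM, were below both control libraries, at 16.0 and 24.0 FPKM, as was so for 6.66% of tested genes. The mean of the knockout lines against control was −0.82 (SE 0.38, limma adjusted p = 0.938), and 0 of 5 members and 0.164% of genes were called. With the replicate block PSME4 fell (−0.90, SE 0.14, limma adjusted p = 0.00789), 1 of 5 members beside 7.66% of genes. It was also called in each knockout line with the block, at −1.04 in KO1 (limma adjusted p = 0.00609, beside 7.54% of genes) and −0.76 in KO2 (limma adjusted p = 0.0308, beside 4.81%). Without the block these were −0.96 and −0.67 (limma adjusted p = 0.919 and 1), with 0 of 5 members called beside 0.107% and 0.0656% of genes.

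PSME1 and PSME2, already at 100% or more of control in each vehicle pair, went the other way from PSME4 in bortezomib. There they were above the paired control library in all 4 pairs, as were 29.7% of tested genes. PSME1 was at 145% and 139% of control in KO1 and at 128% and 131% in KO2, and PSME2 was at 159% and 147% in KO1 and at 118% and 126% in KO2. The mean difference was 0.42 for each, and neither was called (limma adjusted p = 1 for both, or 0.278 for PSME1 and 0.186 for PSME2 under the block). The block that pools unnumbered libraries with R1 called PSME2 in KO1 (0.57, limma adjusted p = 0.0304, beside 12.8% of genes), which the block by suffix did not (limma adjusted p = 0.103). PSME3 was also above control in all 4 pairs, at 102% to 114%, within the same 29.7%, and differed by 0.11. PSMF1 differed by 0.20, and limma adjusted p was 1 for both.

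**Figure D3:**
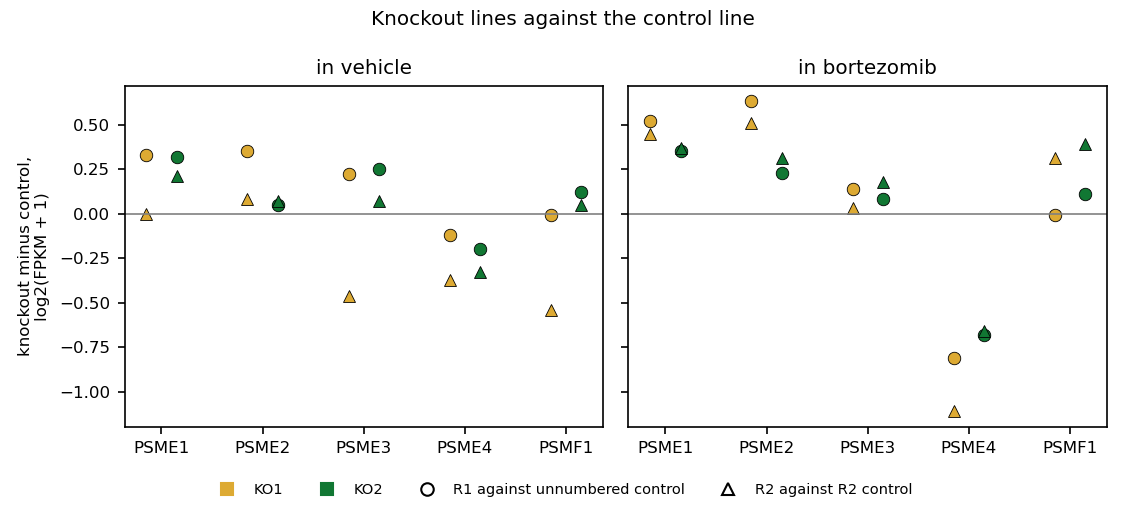
Knockout minus control on the log2(FPKM + 1) scale for each member in vehicle (left) and in bortezomib (right), with KO1 and KO2 by colour and the pair of libraries by marker shape. In bortezomib all 4 points of PSME4 lie between −1.11 and −0.66, and those of PSME1 and PSME2 lie between 0.23 and 0.63.

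The bortezomib contrast of the control line, the knockout contrast in bortezomib and the interaction of both rest on the same 2 control libraries with bortezomib. The interaction asks whether bortezomib acted differently in the knockout lines. For PSME4 it was −0.56 (SE 0.54, limma adjusted p = 1). It stayed short of the threshold with the block (SE 0.16, limma adjusted p = 0.247) and with voom on reads and the block (limma adjusted p = 0.166). The smaller response of PSME4 in the knockout lines was therefore not established by the test of the difference. By pairs it was −0.69 and −0.74 for KO1 and −0.48 and −0.33 for KO2, below the control line in all 4, as for 19.5% of tested genes. PSME1 and PSME2 had the opposite sign in all 4 pairs, as did 20.6% of genes, with interactions of 0.21 and 0.28. PSME3 and PSMF1 were at 0.09 and 0.30, with signs that differed between pairs. Limma called 0 of 5 members and 0.0% of genes for the interaction with and without the block. At an unadjusted p under 0.05 it had 115 genes without the block and 1305 with it, PSME4 being the 1 member among the latter, and voom with the block called 153 genes (1.25%) and none of the 5.

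**Figure D4:**
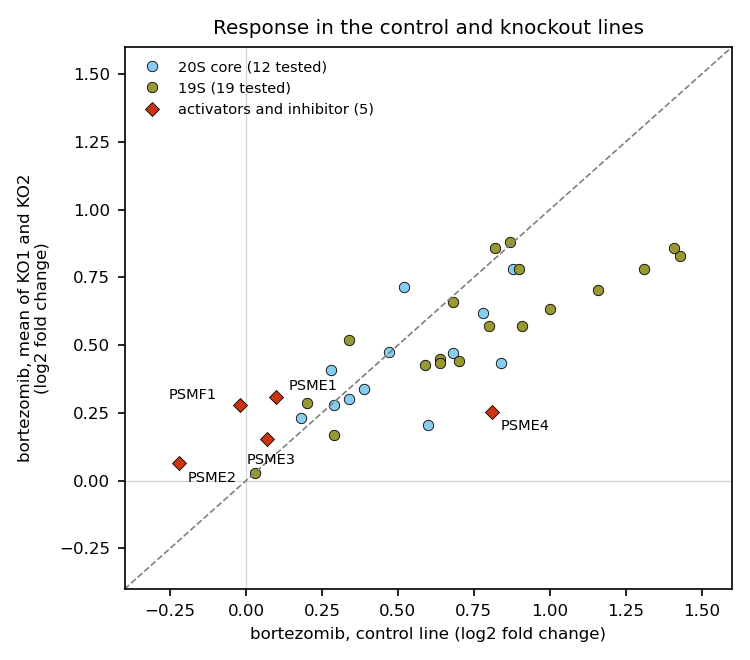
Bortezomib log2 fold change in the control line (x axis) against the mean of KO1 and KO2 (y axis), without the block, for the 5 members, the 12 tested 20S core genes and the 19 genes of the 19S particle, with the dashed line marking equal change. PSME4 (0.81 in control) sits to the right of the line, whereas the other 4 members lie to its left, between −0.22 and 0.10 on the x axis.

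The wider pathway is given as counts over fixed lists. In the control line with bortezomib the 19S genes had a median log2 fold change of 0.80 over 19 tested genes, from 0.03 for SEM1, a small lid subunit, to 1.43 for the ATPase PSMC4. The 20S core had a median of 0.49 over the 12 of 14 genes tested, from 0.18 for PSMA7 to 0.88 for PSMB4. The 5 members had a median of 0.07 and all genes one of −0.01. Without the block 0 genes of either list were called in that line, and with it 15 of 19 and 5 of 12 rose and none fell, beside 32.4% of all genes called in either direction. In that line PSME4 at 0.81 was thus near the 19S median, and the other 4 members were below the lowest 20S core gene. Over the mean of the 3 lines the 19S gene PSMC6 was called without the block (1.04, limma adjusted p = 0.0293), 1 of 19 beside 11.6% of all genes. There 0 of 12 20S genes were called. With the block by suffix 17 of 19 and 11 of 12 rose, beside 54.9%.

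The immunoproteasome and MHC class I list holds the genes known to share interferon control with PSME1 and PSME2. Its median in the control line was 0.05 over 15 of 16 tested genes, with 0 called without the block. With it 3 of 15 were higher and 0 lower, a share below the 32.4% of all genes. HLA-B, a class I heavy chain, was highest at 0.95 (limma adjusted p = 0.14, with the block 0.00401). Over the mean of the 3 lines HLA-B was the 1 gene called without the block (0.96, limma adjusted p = 0.00374), and with it 4 rose and 4 fell, 8 of 15 beside 54.9% of all genes. TAPBP, the peptide-loading chaperone tapasin, was lowest at −0.63. Between the knockout lines and control, the block called 1 of 15 genes in vehicle, TAPBP, which was higher (0.79, limma adjusted p = 0.0191), beside 6.18% of all genes. In bortezomib it called 1 of 15, the peptide transporter subunit TAP1, which was lower (−0.65, limma adjusted p = 0.0444), beside 7.66%. Pooling the unnumbered libraries with R1 gave 1 higher and 1 lower in vehicle and 1 higher and 2 lower in bortezomib, beside 8.21% and 12.7%.

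The 5 proteins known to bind or act with PI31 (FBXO7, TNKS, TNKS2, DYNLL1 and DYNLL2) had a median of 0.64 in the control line with bortezomib, while PSMF1 itself was at −0.02. TNKS, a tankyrase, was highest at 0.87 and DYNLL1, a dynein light chain, lowest at 0.17. Without the block 0 of 5 were called. With it 3 rose in the control line, beside 32.4% of all genes, and 5 of 5 over the mean of lines, beside 54.9%. Assembly factors and other proteasome-bound regulators had a median of 0.05 over 14 of 16 tested genes, 0 called without the block and 5 higher and 1 lower with it, again beside 32.4%. The highest was KIAA0368, the gene of the proteasome adaptor ECM29, at 1.16 and the lowest was PSMG3, an assembly chaperone, at −0.61.

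In bortezomib the knockout lines differed from control by medians of −0.54 over the 19S and −0.35 over the 20S genes, against 0.05 over all genes. In vehicle these medians were already −0.26 and −0.24, against 0.04, with 18 of 19 and 12 of 12 genes negative, and the difference between the treatments was not tested for the lists as wholes. Gene by gene, the interaction had medians of −0.19 over the 19S and −0.04 over the 20S genes, against 0.01 over all genes. It was negative for 15 of 19 and 8 of 12. With and without the block by suffix it called 0 of them, beside 0.0% of all genes. Against control, none was called in either treatment without the block. With the block by suffix 5 of 19 19S genes and 0 of 12 20S genes fell in bortezomib, beside 7.66% of all genes, and 0 of either in vehicle. The form that pools the unnumbered libraries with R1 called 9 of 19 and 1 of 12 lower in bortezomib, beside 12.7%. The 20S gene among them was PSMA4 (−0.63, limma adjusted p = 0.0134). In vehicle that form called 2 of 19, PSMD14 and PSMD1, and 0 of 12, beside 8.21%. PSMC4 was the lowest 19S gene in bortezomib at −1.05, and PSME4 at −0.82 lay between it and the list's median.

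Across the 12 libraries, after the mean of the R2 and of the other libraries was subtracted, the 5 members did not follow a common pattern. Pearson's r of log2(FPKM + 1) was 0.89 between PSME3 and PSMF1, and 0.70 between PSME1 and PSME2, the subunits of the mixed ring. PSME1 was as close to PSME3 (0.70) and to PSMF1 (0.67). PSME4 was at −0.68 with PSME2 and between −0.22 and 0.13 with the other 3. Of all genes tested, those most like PSME4 were CYB5R1, TSPAN9 and PALM3 (r of 0.98, 0.98 and 0.97), and those most like PSME1 were REXO4, PHB2 and SNAP47 (0.98, 0.98 and 0.97). PSME2 was most like MBP, TXNL4A and CAMKK2 (0.96, 0.95 and 0.94), PSME3 most like NOLC1, TCOF1 and REST (0.94, 0.94 and 0.93), and PSMF1 most like MAPRE1, CAPZB and NPM1 (0.97, 0.96 and 0.96). These values describe 12 points that share lines, treatments and libraries, and the highest of 12194 values is high by selection.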

How the data were processed

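RNA of 12 A549 libraries was sequenced. Per the submitters' processing notes CASAVA, STAR 2.5, HTSeq 0.6.1, DESeq2 and the build hg19 were used, in roles not given in the sources used here, while the positions in the deposited table are those of GENCODE release 29 (GRCh38) for 95.2% of its 58676 gene IDs and for all 5 members. The deposited values are FPKM per gene, scaled by the authors to assigned reads, and no strand setting is given per the labels' protocols. Multiplying by length gave whole reads for 100% of values (tolerance 0.05, checked up to 1000 reads).

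Groups came from the labels. Tests were made with limma 3.58.1 under R 4.3.3, using lmFit, contrasts.fit and eBayes with trend on log2(FPKM + 1), 12 libraries in 1 fit with no replicate term. It covered 12194 genes with a mean of at least 1 FPKM, with Benjamini-Hochberg adjustment over all of them and a threshold of 0.05. Fold changes on this scale understate those of low genes, and intervals are 95% intervals of the fit. Title suffixes pair the libraries: R2 minus its partner correlated between every pair of groups across genes (r 0.70 to 0.89, median 0.81, 15 pairs), so a fit with the suffix as a replicate block is given where it changed a call. The block by suffix gives the unnumbered control libraries a level of their own, and a second form puts them on the level of R1. Only control libraries are unnumbered and only knockout libraries are R1, so in the block by suffix these levels cannot be told apart from the line. Knockout-against-control values of that form therefore lean on the R2 libraries.

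All 5 members were always named; of each list the highest and lowest gene and any gene called without the block were named, and the 3 genes of highest r with each member. Other genes were named once their values were known. The members and lists were chosen with earlier results of these data known. Some single genes of these lists are not reported here. SEM1 was matched by gene ID. PSMA2 and PSMA6 were below the filter but are in the 20S mean.

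Tested on simulated data for bortezomib in the control line, with 200 of 12194 genes changed 2-fold, the fit without the block recovered 0 and the fit with it 108 (7 false calls). At 1.5-fold both recovered 0 in that simulation. Its spread was taken from the fit with the pooled block and each gene's R2 shift was added, a setting that favours the block. Python 3.11.15, numpy 2.4.6, pandas 2.3.3, scipy 1.17.1 and matplotlib 3.10.9 were used for reading, the sign-flip test and plots.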

Additional observations from a re-analysis of the deposited data

How the results depend on the processing

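No member was called in any comparison without the block, and over the 9 settings that kept all libraries 421 of 450 member values kept their direction and side of the threshold, 12 moved past it and 17, all uncalled, changed sign. These settings were a pseudocount of 0.1, no filter, a common FPKM sum, quantile normalization, no mitochondrial genes, voom on reads, and 3 forms of the replicate block, and the cause of the changes was not tested. With the replicate block by suffix, with its form that pools unnumbered libraries with R1, and with voom and the block, members called went from 0 to 1 for bortezomib in the control line and for the knockout mean in bortezomib, each time PSME4. For the mean of lines they went to 1, 1 and 2, and in KO2 the last 2 forms called 1. The block changed no other call of a member in the 10 main comparisons. PSMF1 in the control line turned to 0.01 without mitochondrial genes and to 0.0 with voom. PSME2 in KO2 with bortezomib turned to 0.01 with a common sum, 0.03 with quantile normalization and 0.0 with voom. In vehicle, PSME3 in KO1 turned to 0.02 with quantile normalization. Against control, PSME2 in KO2 turned to −0.03 with voom and −0.09 with voom and block, the latter also giving −0.08 for PSME3 and −0.04 for PSMF1. PSME3 in the knockout mean turned in vehicle to 0.0 (common sum), −0.09 (replicate block), −0.04 (voom) and −0.20 (voom and block), and in bortezomib to 0.0 (replicate block) and −0.07 (voom and block). PSME4 in KO1 against KO2 turned to −0.01 with a common sum.

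Leaving out 1 library in turn was done without the block and with the pooled form of it, the latter added after seeing the data. An arm of 1 library is assumed to vary like the others. With the pooled block, the members past the threshold varied with the library left out for bortezomib in KO1 and KO2. So they did for the mean of lines and for the knockout mean in bortezomib. Only effect sizes follow, because such fits leave 1 library in a group and no share over all genes is given. For bortezomib in the control line PSME1 ranged from −0.48 to 0.68, PSME2 from −0.51 to 0.07, PSME3 from −0.40 to 0.54 and PSMF1 from −0.66 to 0.63. In KO1 PSME1 ranged from −0.32 to 1.17, PSME2 from −0.28 to 0.56, PSME3 from −0.54 to 1.09, PSME4 from −0.33 to 0.53 and PSMF1 from −0.47 to 1.29. In KO2 PSME1 ranged from −0.43 to 0.84, PSME2 from −0.29 to 0.27, PSME3 from −0.52 to 0.60 and PSMF1 from −0.49 to 0.80. In the mean of lines PSME1 ranged from −0.01 to 0.49, PSME2 from −0.17 to 0.11, PSME3 from −0.14 to 0.40 and PSMF1 from −0.11 to 0.48. For KO1 against control in vehicle the ranges were −0.58 to 0.91 for PSME1, −0.21 to 0.64 for PSME2, −0.93 to 0.69 for PSME3, −0.62 to 0.13 for PSME4 and −1.15 to 0.60 for PSMF1. For KO2 they were −0.38 to 0.90, −0.23 to 0.35, −0.40 to 0.72, −0.59 to 0.05 and −0.56 to 0.73 in that order. For the knockout mean in vehicle they were −0.37 to 0.80 for PSME1, −0.15 to 0.43 for PSME2, −0.45 to 0.49 for PSME3 and −0.71 to 0.52 for PSMF1, and in bortezomib −0.03 to 0.88 for PSME1, −0.34 to 0.56 for PSME3 and −0.44 to 0.85 for PSMF1. For the interaction they were −0.37 to 0.79 for PSME1, −0.01 to 0.57 for PSME2, −0.38 to 0.56 for PSME3 and −0.35 to 0.94 for PSMF1. For KO1 against KO2 they were −0.84 to 0.65 for PSME1, −0.27 to 0.58 for PSME2, −1.09 to 0.53 for PSME3, −0.35 to 0.40 for PSME4 and −1.23 to 0.52 for PSMF1. PSME4 kept its sign in the other comparisons. With the pooled block, PSME4 was followed in the 4 bortezomib comparisons too. It ranged from 0.73 to 0.89 in the control line and from −0.03 to 0.23 in KO1. In KO2 it ranged from 0.35 to 0.47, and in the mean of lines from 0.40 to 0.48. For the knockout mean in bortezomib it ranged from −0.88 to −0.75, and for the interaction from −0.64 to −0.48. The leave-outs share most of their libraries, and these ranges do not set PSME4 apart from other genes.

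Against the 20S core, PSME3 reached an exact p of 0.0312 with a pseudocount of 0.1 (−0.40), with the 19S list in place of the core (−0.51) and with core genes of a mean of at least 1 FPKM only (−0.34, added after seeing the data). Against the core mean of the main test, 58.6% of tested genes moved down in all 6 pairs. That share was not computed for the alternatives, so their p-values do not set PSME3 apart from other genes. Over these alternatives PSME4 ran from −0.20 against the 19S list (exact p = 0.125) to 0.08 against the core's median (exact p = 0.531). Between the same 2 settings PSME1 ran from −0.40 to −0.12, PSME2 from −0.67 to −0.39 and PSMF1 from −0.46 to −0.18. Leaving out 1 pair gave −0.52 to −0.41 for PSME2, where 5 pairs allow no exact p under 0.0625, and −0.10 to 0.09 for PSME4. In the simulation of bortezomib in the control line, with 2 libraries a group, 2-fold changes were out of reach without the block. The mean of lines, where 11.6% of genes were called without the block, was not simulated.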
